A study of Homo sapiens with 6 samples.

Results

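Cyclins are the regulatory subunits of the cyclin-dependent kinases (CDKs), and the 10 genes described here are the cyclins that accompany the phases of the cell cycle. They were taken by name, by a rule that uses no measured value although earlier results of these data were known, and their symbols were matched to the Ensembl identifiers of the count table, which lists 63677 genes. All 10 were found in it. By the phase in which their proteins act, they were grouped into G1 cyclins (CCND1, CCND2, CCND3), G1/S cyclins (CCNE1, CCNE2), S/G2 cyclins (CCNA1, CCNA2, CCNF) and mitotic cyclins (CCNB1, CCNB2).

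The cells were UWB1.289, a human ovarian carcinoma line that lacks functional BRCA1. The genotype label reads "WT" in all 6 samples, and the loss of BRCA1 is a property of the line itself as the study describes it. In the Olaparib group, 3 samples received 4 µM Olaparib, an inhibitor of the DNA repair enzyme PARP1, for 24 h, and in the DMSO group 3 samples received the solvent alone for the same time. The series design text gives 10 µM in place of 4 µM. The samples are 1 cell line at 1 dose and 1 time, the protocols name no synchronisation, and poly(A) RNA was sequenced from whole cultures, so a change in the share of cells in a phase and a change in RNA per cell cannot be told apart.

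A CDK has little activity until a cyclin binds it, and the cyclin also helps to choose what the kinase phosphorylates. D cyclins pair with CDK4 and CDK6 and, with the E cyclins and CDK2, phosphorylate the retinoblastoma protein, which releases E2F transcription factors that in turn activate E and A cyclin genes. A cyclins serve DNA replication and then the approach to mitosis, and B cyclins with CDK1 drive mitosis until the anaphase-promoting complex marks them for destruction. Cyclin F differs from the others in that it activates no known CDK and is instead the substrate-binding subunit of an SCF ubiquitin ligase. Transcription of the A2, B1, B2 and F genes rises towards G2 and mitosis, under MuvB complexes, FOXM1 and the CCAAT-binding factor NF-Y.

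The 6 libraries held 35360458 to 39640775 counts, TMM factors were 0.995 to 1.01, and mitochondrial genes took 5.68% to 6.11%. Levels are given in CPM (counts per 1000000 counts of the library), TMM-normalised except for the cell type markers, which used raw library totals. Of 8 markers of ovarian and Mullerian epithelium, 7 lay over 1 CPM, among them PAX8 at a mean of 316 CPM, while WT1 had at most 2 counts in a library. The summed epithelial markers reached 12469 to 13097 CPM with Olaparib and 12506 to 12738 CPM with DMSO. Over 1 CPM were 2 of 5 fibroblast markers, 2 of 5 leukocyte markers and 3 of 4 endothelial markers. In these lists LUM and PECAM1 had 0 counts in all libraries, while COL1A2 (fibroblast) had a mean of 38.8 CPM and CDH5 (endothelial) 41.8 CPM. Summed fibroblast markers were 43.8 to 49.1 CPM with Olaparib and 46.1 to 49.3 CPM with DMSO. Summed endothelial markers were 44.1 to 45.5 CPM and 45.2 to 48.0 CPM. Summed leukocyte markers were 3.34 to 3.84 CPM with Olaparib and 2.83 to 3.48 CPM with DMSO. With 3 libraries a group, no exact permutation of a single gene can reach a p below 0.1, so differences were tested in a fit across all genes.

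All 10 cyclins were well counted: their totals over the libraries ran from 5106 counts (CCNA1) to 240344 counts (CCND1), and no library had fewer than 767 counts of any of them. With Olaparib, CCNE1, CCNA1, CCNB1 and CCNB2 were higher and CCND2 and CCNE2 were lower by edgeR's quasi-likelihood test, called where the p after Benjamini-Hochberg adjustment over 21729 genes was under 0.05. That is 6 of 10 cyclins, where 3.36% of all tested genes were called, 2.15% higher and 1.21% lower. Well counted genes are called more often: among the 7319 genes with a mean count no lower than that of CCNA1, 5.83% were called. The differences were small. The median absolute log2 fold change of the cyclins was 0.14, against 0.04 for those 7319 genes, and only CCNA1 and CCNE2 also passed a fold of 1.2, a mark that 1.21% of all tested genes passed together with the p threshold. In 8 of 10 cyclins the Olaparib and DMSO values did not overlap, in 5 upwards and in 3 downwards, against 19.3% of all tested genes, 10.0% upwards and 9.29% downwards, and 26.2% of the 7319 well counted genes in either direction. The number of calls over all genes depends on single libraries: 730 with all 6, and 467 higher and 263 lower among them, against 270 to 567 higher and 127 to 303 lower when 1 library was left out. The median signed log2 fold change was 0.06 over the cyclins and -0.0042 over all genes.

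**Figure D1:**
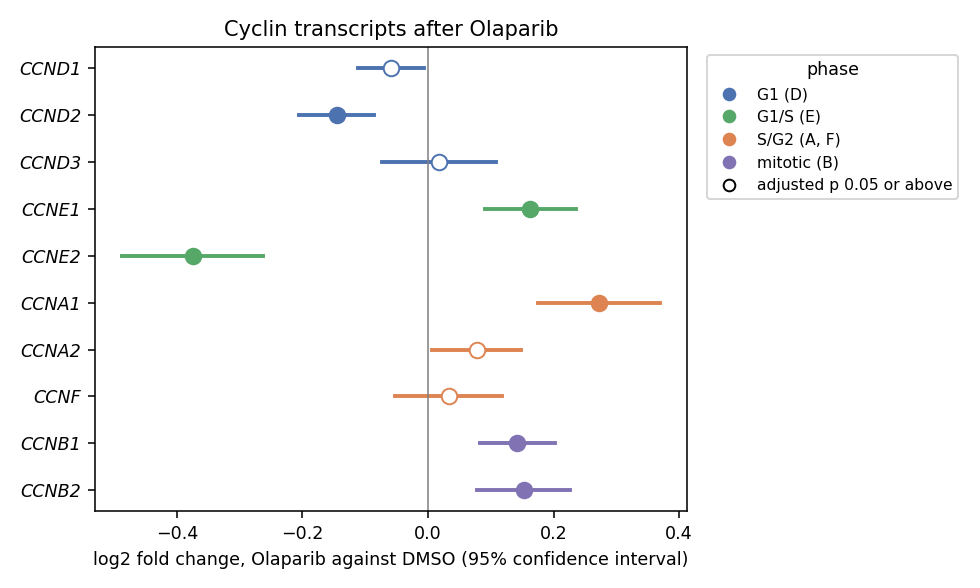
Log2 fold change of each cyclin with Olaparib against DMSO (x axis), by gene in the order of the phases (y axis). Points are estimates from edgeR's fit on 3 and 3 libraries and bars are 95% confidence intervals; CCNE2 at -0.38 and CCNA1 at 0.27 lie farthest from 0, on opposite sides.

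Of the G1 cyclins, CCND2 fell, while CCND1 and CCND3 did not pass the test. CCND1, the D cyclin most linked to mitogen signals (ENSG00000110092, GRCh38 chr11:69641156-69654474, plus strand), had 1062, 1056 and 1027 CPM with Olaparib and 1089, 1105 and 1082 CPM with DMSO. All Olaparib libraries lay below all DMSO libraries. The log2 fold change was -0.06 (SE 0.026), a difference of -4.01% with a 95% interval from -7.48% to -0.405%, and it missed the threshold (adjusted p = 0.262, edgeR's quasi-likelihood test). Of the CCND1 exon length, 10.4% overlaps LTO1 on the other strand, whose log2 fold change was -0.10 (adjusted p = 0.291, edgeR's quasi-likelihood test).

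CCND2, a D cyclin with the same kinase partners (ENSG00000118971, GRCh38 chr12:4269771-4305353, plus strand), measured 339, 357 and 365 CPM with Olaparib against 383, 399 and 391 CPM with DMSO. The groups were apart, and the lowest library was the first Olaparib replicate. CCND2 fell by 0.15 on the log2 scale (SE 0.029), a difference of -9.59% (95% interval -13.3% to -5.77%, adjusted p = 0.00229, edgeR's quasi-likelihood test). Exons of other genes cover 13.8% of its exon length, with 12.5% from ENSG00000285901, a protein-coding gene on the same strand whose counts were not analysed here. The part of that gene in the CCND2 counts was not tested. The antisense gene CCND2-AS1 had 19 counts in all libraries together.

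CCND3, the remaining D cyclin (ENSG00000112576, GRCh38 chr6:41934934-42050357, minus strand), had 33.3, 36.0 and 35.0 CPM with Olaparib and 34.3, 35.0 and 33.8 CPM with DMSO. The groups overlapped, and the Olaparib libraries included both the lowest and the highest value. Its log2 fold change was 0.02 with a 95% interval from -0.07 to 0.11 (adjusted p = 0.913, edgeR's quasi-likelihood test), and it was -0.0082 without the second Olaparib replicate. Any change of CCND3 beyond -4.98% or 7.77% lies outside this interval.

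The E cyclins, which bind CDK2 at the entry into S phase, moved in opposite directions. CCNE1 (ENSG00000105173, GRCh38 chr19:29811991-29824312, plus strand) had 95.9, 96.3 and 94.7 CPM with Olaparib and 83.8, 86.4 and 85.9 CPM with DMSO. Every Olaparib library was above every DMSO library, and replicates of a group lay close together. CCNE1 rose by 11.98% (95% interval 6.44% to 17.8%), a log2 fold change of 0.16 with SE 0.036 (adjusted p = 0.00580, edgeR's quasi-likelihood test).

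CCNE2 (ENSG00000175305, GRCh38 chr8:94879770-94896678, minus strand) had 27.0, 22.2 and 24.5 CPM with Olaparib and 33.9, 29.8 and 32.0 CPM with DMSO. The groups were apart, although replicates varied more than those of CCNE1: the SD was 2.38 CPM around a mean of 24.6 with Olaparib and 2.04 CPM around 31.9 with DMSO. CCNE2 fell by 0.38 on the log2 scale (SE 0.055), a difference of -22.9% (95% interval -28.7% to -16.6%, adjusted p = 3.65e-05, edgeR's quasi-likelihood test), the widest difference of the 10 cyclins. Exons of INTS8, a subunit gene of the Integrator complex on the other strand, cover 37.1% of the CCNE2 exon length, and the strand setting of the counting is not given in the sources used here. INTS8 itself measured 63.9 ± 1.90 CPM with Olaparib and 63.8 ± 0.454 CPM with DMSO (SD, n = 3 each). The log2 fold change of INTS8 was 0.0017 with a 95% interval from -0.08 to 0.08, and the part of INTS8 reads in the CCNE2 counts was not tested.

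Per length, in reads per 1000 bases of exon and 1000000 counts (RPKM), the ratio of CCNE1 to CCNE2 was 6.35, 7.74 and 6.90 with Olaparib and 4.42, 5.17 and 4.80 with DMSO. The ratios did not overlap between the groups. CCNE1 thus held 86.4% to 88.6% of the summed E cyclin RPKM with Olaparib and 81.5% to 83.8% with DMSO.

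Among the S/G2 cyclins, CCNA1 rose, and CCNA2 and CCNF did not pass the test. CCNA1, the A cyclin known above all from male germ cells (ENSG00000133101, GRCh38 chr13:36431520-36442870, plus strand), had 24.9, 25.5 and 24.3 CPM with Olaparib and 21.4, 20.1 and 20.4 CPM with DMSO. No value of one group reached into the other. The rise was 20.8% (95% interval 13.0% to 29.2%), a log2 fold change of 0.27 with SE 0.048 (adjusted p = 0.000378, edgeR's quasi-likelihood test).

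CCNA2, the A cyclin of dividing somatic cells (ENSG00000145386, GRCh38 chr4:121816444-121823883, minus strand), had 106, 104 and 105 CPM with Olaparib and 97.8, 99.2 and 101.5 CPM with DMSO. The Olaparib libraries were all higher, by a narrow gap. The log2 fold change was 0.08 (SE 0.035), a difference of 5.50% with a 95% interval from 0.431% to 10.8%, and it missed the threshold (adjusted p = 0.275, edgeR's quasi-likelihood test). The gene shares 9.24% of its exon length with EXOSC9, whose log2 fold change was -0.01.

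Both A cyclins were set side by side per length. The RPKM ratio of CCNA2 to CCNA1 was 3.49, 3.33 and 3.54 with Olaparib and 3.74, 4.05 and 4.08 with DMSO, so the groups were apart and CCNA2 was the more abundant transcript in every library.

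CCNF (ENSG00000162063, GRCh38 chr16:2429394-2458854, plus strand) had 49.9, 53.9 and 51.7 CPM with Olaparib and 50.1, 49.96 and 51.9 CPM with DMSO. The groups overlapped, with the DMSO values inside the Olaparib range. Its log2 fold change of 0.03 had a 95% interval from -0.05 to 0.12 (adjusted p = 0.787, edgeR's quasi-likelihood test), so changes beyond -3.54% or 8.51% lie outside it. Of the 5 genes listed as encoding substrates of the SCF ligase with cyclin F, 1 was called: RRM2, the small subunit of ribonucleotide reductase, fell from 206 ± 2.93 CPM to 190.3 ± 3.44 CPM (SD, n = 3 each), or -0.11 on the log2 scale (adjusted p = 0.0246, edgeR's quasi-likelihood test). Without Olaparib replicate 2, Olaparib replicate 3, DMSO replicate 2 or DMSO replicate 3, the adjusted p of RRM2 in edgeR's quasi-likelihood test was 0.102, 0.0823, 0.154 and 0.0953.

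Both mitotic cyclins rose. CCNB1, the main partner of CDK1 (ENSG00000134057, GRCh38 chr5:69167135-69178245, plus strand), had 228, 229 and 230.2 CPM with Olaparib and 203, 208 and 211 CPM with DMSO. The Olaparib libraries were nearly alike, with an SD of 1.25 CPM against 4.32 CPM with DMSO, and all lay above the DMSO libraries. CCNB1 rose by 10.4% (95% interval 5.90% to 15.1%), a log2 fold change of 0.14 with SE 0.029 (adjusted p = 0.00297, edgeR's quasi-likelihood test).

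CCNB2, a B cyclin whose protein is found mainly at the Golgi (ENSG00000157456, GRCh38 chr15:59105126-59125045, plus strand), had 99.7, 96.3 and 99.5 CPM with Olaparib and 86.1, 88.9 and 90.7 CPM with DMSO. Again no values overlapped. CCNB2 rose by 11.2% (95% interval 5.59% to 17.0%), a log2 fold change of 0.15 with SE 0.036 (adjusted p = 0.0113, edgeR's quasi-likelihood test). The call depended on single libraries, since the adjusted p was 0.0633 without Olaparib replicate 3 and 0.0574 without DMSO replicate 2, while the log2 fold change stayed at 0.14 and 0.16. The RPKM ratio of CCNB1 to CCNB2 was 2.59, 2.69 and 2.62 with Olaparib and 2.66, 2.65 and 2.64 with DMSO, and these ranges overlapped. Processed copies of cyclin genes took few reads: CCNB2P1 had 4 counts and CCND3P1 had 6 counts in all libraries together.

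**Figure D2:**
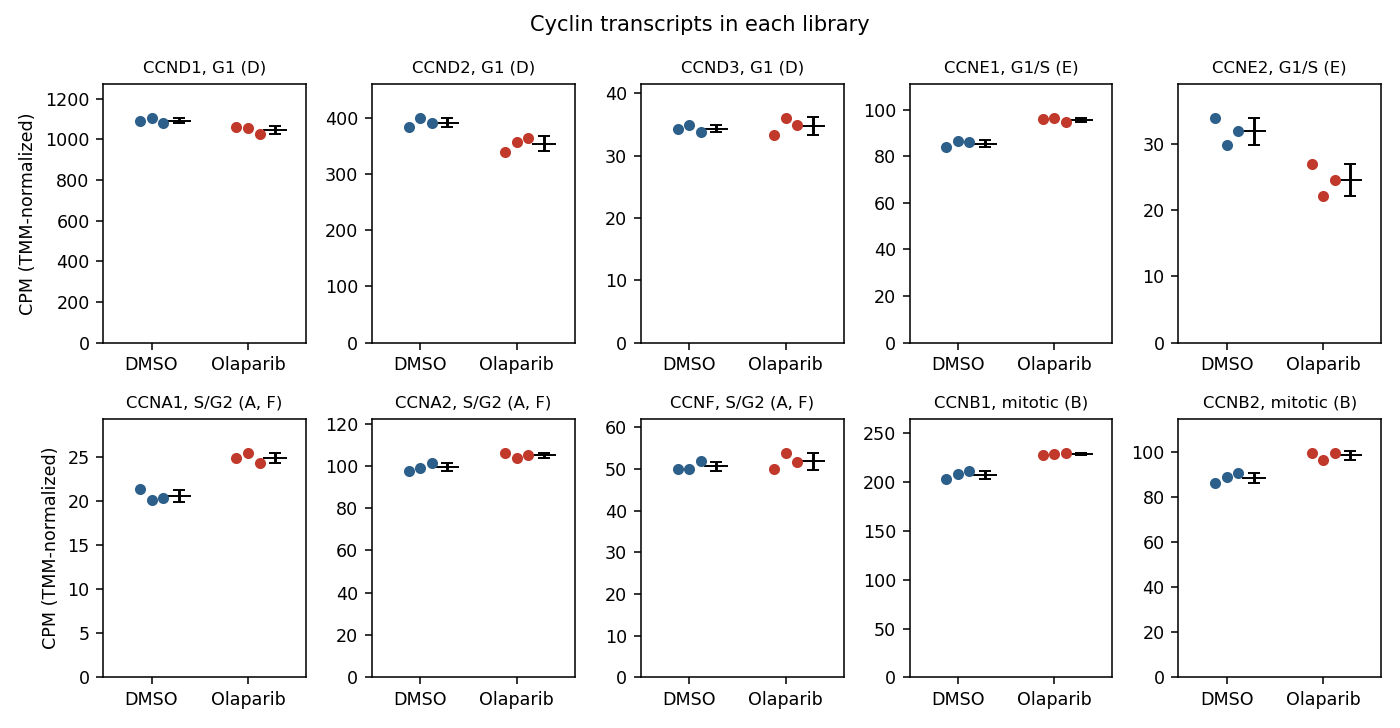
TMM-normalised CPM of each cyclin in every library (y axis, one panel per gene), with Olaparib and DMSO side by side. Points are single libraries and the bars show the mean and SD of 3; the groups overlap only in the CCND3 and CCNF panels.

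The promoters of the B, A2, F and E1 genes are shown because they carry known binding letters of the factors named above and because these genes did not move alike. RefSeq promoter windows on GRCh38.p14, from 250 bases before to 50 bases after the start, were matched by symbol for 7 of 10 cyclins, and CCND1, CCND2 and CCNE2 had no entry. The letters searched on both strands were CCAAT, the box bound by NF-Y, then TTTGAA or TTCGAA, and TCCCGC or TTGGCGC, a core bound by E2F. TTTGAA and TTCGAA are forms of the cell cycle homology region (CHR) bound by MuvB complexes. Other forms of the CHR were not searched, so a promoter without a match, such as that of CCNA2, may still hold a CHR. Below are the 130 bases before the start, 5′ to 3′ along the gene, with CCAAT on either strand in capitals, except for CCNE1, where the capitals are E2F cores on either strand. They lie at chr5:69167020-69167149 (CCNB1, plus strand), chr15:59105016-59105145 (CCNB2, plus strand), chr4:121823884-121824013 (CCNA2, minus strand), chr16:2429317-2429446 (CCNF, plus strand) and chr19:29811861-29811990 (CCNE1, plus strand).
CCNB1: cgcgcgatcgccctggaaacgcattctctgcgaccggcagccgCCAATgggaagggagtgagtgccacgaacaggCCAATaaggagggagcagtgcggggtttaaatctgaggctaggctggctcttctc
CCNB2: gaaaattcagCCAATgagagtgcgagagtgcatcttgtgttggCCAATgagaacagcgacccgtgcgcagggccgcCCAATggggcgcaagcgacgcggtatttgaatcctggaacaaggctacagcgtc
CCNA2: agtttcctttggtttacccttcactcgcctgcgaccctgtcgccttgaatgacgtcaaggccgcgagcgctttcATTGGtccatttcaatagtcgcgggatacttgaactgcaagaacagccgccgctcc
CCNF: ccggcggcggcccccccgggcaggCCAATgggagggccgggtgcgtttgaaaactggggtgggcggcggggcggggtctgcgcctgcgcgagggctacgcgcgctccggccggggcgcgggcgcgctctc
CCNE1: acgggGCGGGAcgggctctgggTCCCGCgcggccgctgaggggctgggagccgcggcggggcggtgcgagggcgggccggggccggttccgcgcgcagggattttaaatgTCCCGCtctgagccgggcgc

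The 2 CCAAT boxes of CCNB1 begin at positions -87 and -55, 32 bases apart. CCNB2 holds 4 boxes, of which those at -120, -87 and -54 follow each other at 33 and 33 bases, and a CHR at -29. CCNA2 has 1 box on the reverse strand at -56 and E2F cores at -176 and -36. CCNF, which did not pass the test, holds 4 boxes, 2 CHR matches and 1 E2F core in the window of 300 bases. CCNE1 has no CCAAT box and 3 E2F cores at -125, -108 and -20. CCND3, which did not pass the test, had 3 windows with 2 CCAAT boxes in all, at -136 and -64, and 1 E2F core at -125. None of these letters stood in the CCNA1 window, which says only that the letters are absent there, and no match of one motif overlapped a match of another in the cyclin windows. Of 35116 RefSeq promoter windows of the same length, 34.6% held CCAAT, 10.8% held 2 or more and 3.26% held 3 or more, 16.4% held the CHR letters, and 28.6% held the E2F core, 2.24% with 3 or more. The matches describe the letters in the windows, and binding was not measured.

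Summed by phase, the cyclins were lower with Olaparib in the D class and higher in the other 3 classes, by the most in the B class. The D cyclins summed to 1434, 1449 and 1426 CPM with Olaparib and 1506, 1539 and 1507 CPM with DMSO, a mean difference of -5.33%. The E cyclins summed to 123, 118.5 and 119 CPM against 118, 116 and 118 CPM, a difference of 2.49%. For the S/G2 cyclins the sums were 181, 183 and 181 CPM against 169, 169 and 174 CPM, 6.41% more with Olaparib. For the B cyclins they were 327, 325 and 329.7 CPM against 289, 297 and 302 CPM, 10.6% more. In each class the groups did not overlap, upwards for E, S/G2 and B and downwards for D, with no test made over these sums. CCND1 made up the largest part of the D sum and CCNE1 of the E sum. The mean log2 fold change, in which members weigh the same, was -0.06 for D, -0.11 for E, 0.13 for S/G2 and 0.15 for B, and thus differed in sign from the sum for the E class.

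The same libraries differed in other genes of the cycle. Of 53 G2/M phase genes that are not cyclins, 16 rose and 0 fell, with a median log2 fold change of 0.07, and 30.2% were called, where 2.15% of all tested genes and 4.1% of the 7319 well counted genes rose. TOP2A (log2 fold change 0.29, adjusted p = 1.48e-07), CKAP5 (0.27, adjusted p = 1.16e-07) and HMMR (0.24, adjusted p = 1.76e-06), which serve chromosome structure and the spindle, were among the 16 by edgeR's quasi-likelihood test. Of 41 tested S phase genes 5 fell (DTL, MCM6, UNG, UBR7 and RRM2) and 0 rose, with a median log2 fold change of -0.04 and 12.2% called, where 1.21% of all tested genes and 1.74% of the well counted genes fell. The genes named from both lists were picked after their values were seen. Without DMSO replicate 3 the number of G2/M genes that rose was 10, and without Olaparib replicate 3 or DMSO replicate 2 the number of S phase genes that fell was 3. At an unadjusted p under 0.05 by edgeR, 26 G2/M genes were higher and 3 lower, and 12 S phase genes were lower and 0 higher. No share over all genes was taken at that threshold. DESeq2 and limma voom called 0 G2/M genes lower and 0 S phase genes higher. As a percentage of the DMSO mean, the summed CPM of the G2/M list was 105.7% to 107.7% with Olaparib and 99.5% to 100.3% with DMSO, and that of the S list was 96.4% to 98.6% and 99.7% to 100.4%. On that scale the B cyclins stood at 109.9% to 111.4% with Olaparib and the D cyclins at 94.0% to 95.5%. The part of cell cycle distribution in the cyclin values was not tested.

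**Figure D3:**
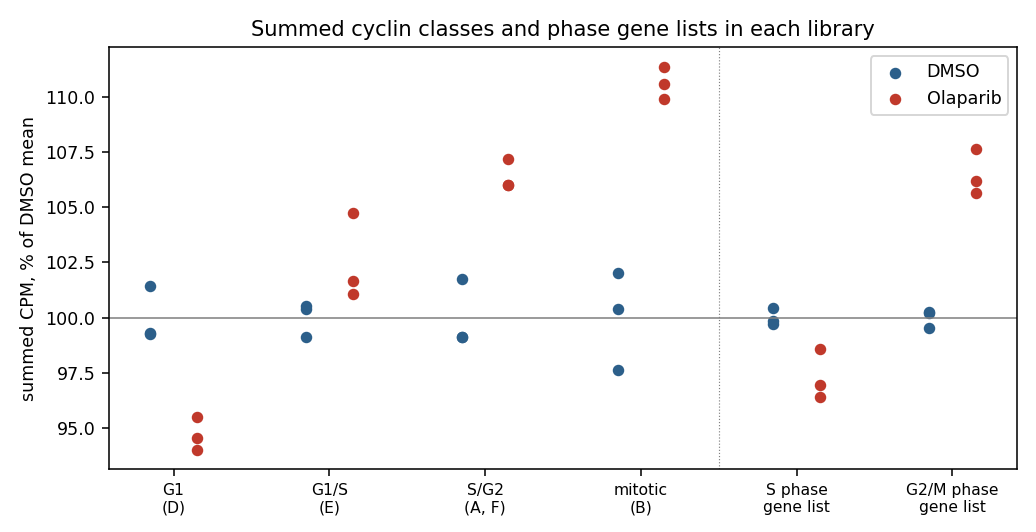
Summed CPM of the 4 cyclin classes, and of the S and G2/M phase lists without the cyclins, as a percentage of the DMSO mean (y axis) in each library. Points are single libraries; with Olaparib the D cyclins lie at 94.0% to 95.5%, the E cyclins at 101.1% to 104.7%, the S/G2 cyclins at 106.0% to 107.2% and the B cyclins at 109.9% to 111.4%.

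Levels of different cyclins were compared per length, with exon lengths from GENCODE 44. In DMSO the order by RPKM was CCND1 (229 ± 2.49), CCNB1 (85.3 ± 1.77), CCND2 (49.0 ± 0.995), CCNA2 (36.2 ± 0.681), CCNE1 (34.7 ± 0.560), CCNB2 (32.2 ± 0.833), CCNA1 (9.16 ± 0.313), CCNF (8.03 ± 0.174), CCNE2 (7.26 ± 0.463) and CCND3 (5.96 ± 0.106), each mean with its SD over 3 libraries. All neighbours in that order were apart in their library ranges, some by little. CCNA2 stood 1.04 times above CCNE1, and CCNE1 1.08 times above CCNB2. CCNF stood 1.11 times above CCNE2, and CCNE2 1.22 times above CCND3. Exons of other genes cover 37.1% of the CCNE2, 13.8% of the CCND2, 11.8% of the CCNF, 10.4% of the CCND1 and 9.24% of the CCNA2 exon length. The effect of such overlaps and of the exon length used on the order was not tested. CCND1 stood 2.69 times above CCNB1 in RPKM, and within its own class it held 80.6% to 80.9% of the D cyclin RPKM.

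With Olaparib the order by RPKM changed in places. CCNE1 (38.9 ± 0.340) came before CCNA2 (38.2 ± 0.469), and CCND3 (6.03 ± 0.238) before CCNE2 (5.59 ± 0.542), but the library ranges of both pairs overlapped. CCND1 stood 2.34 times above CCNB1, at 220.2 ± 3.95 RPKM and 94.1 ± 0.513 RPKM. The RPKM ratio of CCNB1 to CCND1 was 0.420, 0.424 and 0.439 with Olaparib and 0.364, 0.369 and 0.382 with DMSO, with no overlap. The RPKM ratio of CCNB1 to CCNA2 was also without overlap, at 2.42, 2.50 and 2.47 with Olaparib and 2.34, 2.37 and 2.35 with DMSO. By contrast, the RPKM ratio of CCNB1 to CCNE1 overlapped between the groups, at 2.40, 2.40 and 2.46 against 2.45, 2.44 and 2.49.

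**Figure D4:**
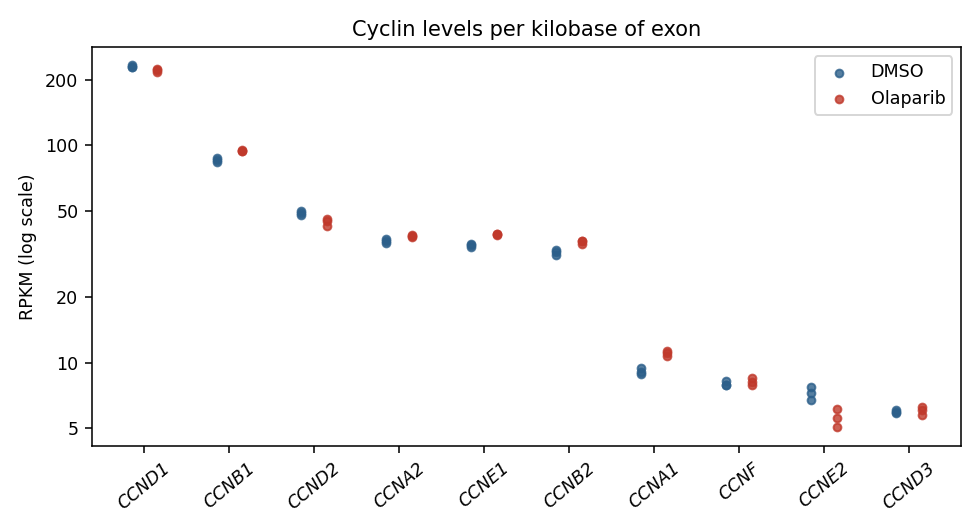
RPKM of the 10 cyclins on a log axis (y axis), ordered by their DMSO mean, with Olaparib and DMSO side by side. Points are single libraries; CCND1 at 229 RPKM and CCND3 at 5.96 RPKM are the ends of the DMSO order.

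Genes that act with the cyclins were taken from 7 lists with 84 genes, all tested, of which 6 rose and 1 fell (8.33%), with a median log2 fold change of 0.01. Over all tested genes 3.36% were called, and among the 7319 well counted genes 5.83%, so the share in these lists lay near that of well counted genes. The lists share genes with the phase lists: CDK1, CDC20 and UBE2C, which rose, are also G2/M phase genes. RRM2, which fell, is also an S phase gene. Among 7 kinase genes, CDK1, the partner of the B and A cyclins, rose from 288 ± 9.0 CPM to 327 ± 11.7 CPM (SD, n = 3 each), or 0.18 on the log2 scale with SE 0.031 (adjusted p = 0.000195, edgeR's quasi-likelihood test). CDK2, CDK4 and CDK6, which serve the E and D cyclins and are named here after their values were seen, had log2 fold changes of 0.08, 0.04 and 0.05 (adjusted p = 0.180, 0.682 and 0.617, edgeR's quasi-likelihood test). Among 5 kinases and phosphatases that act on the tyrosine of CDKs, CDC25B, a phosphatase that activates CDK1, rose from 127 ± 1.5 CPM to 143 ± 4.03 CPM (log2 fold change 0.17, adjusted p = 0.00107, edgeR's quasi-likelihood test).

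Genes of cyclin destruction gave 3 of 20 higher (15.0%), where 2.15% of all tested genes and 4.1% of the 7319 well counted genes rose. CDC20, which directs the anaphase-promoting complex to B cyclins, rose from 268 ± 8.48 CPM to 302 ± 6.0 CPM, UBE2C from 194 ± 4.26 CPM to 230.0 ± 1.33 CPM and UBE2S from 68.6 ± 1.03 CPM to 79.3 ± 3.42 CPM (SD, n = 3 each), the last 2 being the ubiquitin-conjugating enzymes of that complex. Their log2 fold changes were 0.17, 0.25 and 0.21 (adjusted p = 0.000371, 1.18e-06 and 0.00125, edgeR's quasi-likelihood test). Of 23 genes in the transcriptional control of cyclins, 1 was called (4.35%), where 3.36% of all tested genes and 5.83% of the well counted genes were. This gene was MYBL2, the B-MYB factor of MuvB complexes, which rose from 262 ± 2.38 CPM to 286 ± 9.07 CPM (log2 fold change 0.13, adjusted p = 0.00681, edgeR's quasi-likelihood test). Its adjusted p was 0.0570 without Olaparib replicate 2 and 0.0684 without DMSO replicate 2.

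CDK inhibitors and the other cyclins gave no call. For neither list was the share of all genes with an unadjusted p under 0.05 taken. None of 7 CDK inhibitor genes passed edgeR's quasi-likelihood test, 1 had an unadjusted p under 0.05, and DESeq2 and limma voom called 0. That gene was CDKN1A, the p53 target that encodes p21, at 3.83 ± 0.240 CPM with Olaparib and 3.16 ± 0.317 CPM with DMSO (SD, n = 3 each), with a log2 fold change of 0.28, SE 0.112 and adjusted p = 0.208. Of 17 other cyclin genes, several of which serve transcription, 0 were called by edgeR's quasi-likelihood test, DESeq2 or limma voom, and 3 had an unadjusted p under 0.05. The smallest p belonged to CCNL1, a cyclin of splicing, at 111 ± 3.30 CPM with Olaparib and 119 ± 0.499 CPM with DMSO (log2 fold change -0.09, adjusted p = 0.149, edgeR's quasi-likelihood test).

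For the most abundant cyclin of each class, the genes with the most similar pattern were sought by Pearson's r of log2 CPM over the 6 libraries among the 11997 genes whose mean count reached 100. These values describe the libraries, which share the treatment and therefore the group difference. CCND1 was closest to ENSG00000163386, BTF3L4 and POU3F3 (r = 0.993, 0.992 and 0.990). CCNE1 was closest to NCS1, FOSL2 and TNS4 (0.997, 0.996 and 0.994). CCNA2 was closest to DAP3, RHOBTB1 and SUSD5 (0.997, 0.994 and 0.991), and CCNB1 to PCOLCE2, RHOB and FHL1 (0.998, 0.997 and 0.997). Among the cyclins themselves, CCNB1 had r = 0.982 with CCNE1 and 0.976 with CCNB2.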

How the data were processed

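RNA was measured in 6 samples, 3 with Olaparib and 3 with DMSO, grouped by their titles. The authors deposited counts per gene, whole numbers without normalization, made by Trimmomatic, STAR on GRCh38, Picard and featureCounts. The study names a stranded library kit and a count of duplicates by Picard. Whether duplicates were removed, and the strand setting of the counting, are not given in the sources used here, so overlapping genes are uncertain. Library totals were 35360458 to 39640775, and replicates differed by more than sampling noise (chi-square per degree of freedom 1.81 to 4.11). The study describes the replicates as independent.

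Genes with more than 10 counts in total (21729) were scaled by TMM and tested for Olaparib against DMSO with edgeR 4.0.16 (quasi-likelihood, treatment as the only term, Benjamini-Hochberg) in R 4.3.3, and called at an adjusted p under 0.05. The test was checked on simulated counts with changes larger than those of the cyclins, so the check does not cover differences as small as theirs. CPM used TMM library sizes, except for the cell type markers, which used raw library totals. RPKM used the summed exon length of GENCODE 44 on GRCh38, and 96.0% of tested identifiers had a symbol. Phase lists came from Seurat 5.3.0 without the cyclins, and the other lists from general knowledge. UHRF1 had no match. Promoters came from RefSeq.

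The cyclins and all lists were chosen with earlier results of these data known. Named were all 10 cyclins, every called gene of a pathway list (in a list with none, the smallest p), and the 3 genes most like the most abundant cyclin of each class. Alternatives were DESeq2 1.42.0, limma 3.58.1 voom, robust dispersion, other scalings, other filters, a replicate block, a fold threshold of 1.2 and leaving out each library.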

Additional observations from a re-analysis of the deposited data

How the results depend on the processing

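The direction and call of CCND2, CCNE1, CCNE2, CCNA1 and CCNB1 held in all 14 other settings, and CCND1, CCNA2, CCND3 and CCNF were called in none. Without 1 library, 3 to 4 cyclins were called higher (CCNB2 was lost without Olaparib replicate 3 or DMSO replicate 2) and 2 lower. CCND3 ranged from -0.0082 (without Olaparib replicate 2) to 0.049 (without Olaparib replicate 1). Requiring also a fold above 1.2 left 1 cyclin higher and 1 lower, and 157 genes higher and 105 lower over all genes. DESeq2 called 156 genes lower in all, and filterByExpr 1 G2/M gene lower. Over the 6 settings without 1 library, all genes called higher were 270 to 567 and lower 127 to 303, G2/M genes higher 10 to 17, S phase genes lower 3 to 7 and pathway genes lower 0 to 1. The counts over all genes moved by more than 1.5 times without Olaparib replicate 3, DMSO replicate 2 or DMSO replicate 3, and those lower also without DMSO replicate 1. The cause of these shifts was not tested, beyond the smaller number of libraries.

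Libraries of the same replicate number did not deviate together throughout. Over 11997 genes, deviations of same-numbered libraries correlated at -0.20, 0.26 and -0.32, and Olaparib replicate 3 correlated best with DMSO replicate 1 (0.48). Deviations from a mean of 3 libraries depend on each other, so this check cannot decide whether the numbers pair the libraries. With the replicate block, 805 genes were called higher and 517 lower, S phase genes lower were 10, G2/M genes lower 2 and pathway genes lower 3, and the calls of the cyclins did not change.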

Other observations

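Of the 23 genes in the transcriptional control of cyclins, 6 had Olaparib libraries all below the DMSO libraries and 2 had them all above. Of all tested genes 9.29% and 10.0% did so, and of the 7319 well counted genes 26.2% did in either direction. The 6 lower genes were E2F1, E2F2, E2F5, E2F6, E2F8 and NFYA, named after their values were seen. The groups overlapped for E2F3, E2F4 and E2F7, with log2 fold changes of -0.06, 0.06 and 0.04. None of the 6 passed edgeR's quasi-likelihood test after adjustment, and DESeq2 and limma voom called 0 of the 23 lower. The same 6 were those lower at an unadjusted p under 0.05, for which no share over all genes was taken.

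CCAAT boxes were also counted for the tested genes other than the cyclins that had a RefSeq promoter entry. A gene with several entries was counted by the entry with the most boxes, which favours higher counts for genes with more entries. Of 7660 genes with no box, 2.32% were called higher and 1.28% lower, with a median log2 fold change of 0.0024. With 1 box (3522 genes) these values were 2.95%, 1.42% and 0.0039, and with 2 boxes (1335 genes) 2.77%, 1.35% and -0.00077. With 3 or more boxes (703 genes) they were 2.99%, 1.85% and 0.02. The shares did not rise step by step with the number of boxes.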
